A study of Mus musculus with 8 samples.

Results

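Klf2 S1pr1 cells were defined here as barcodes with at least 1 UMI of Klf2, at least 1 UMI of S1pr1 and 0 UMIs of Izumo1r, a UMI being the tag that counts 1 captured RNA molecule. A barcode was kept when it had at least 500 detected genes and at most 10% of its UMIs from mitochondrial genes. Of 21551 kept barcodes, 2945 met the rule and 18606 did not. Brain gave 1422 members of 10313 barcodes at day 14 and 33 of 348 at day 50, and spinal cord gave 1384 of 9270 and 106 of 1620. Measured values of Klf2, S1pr1 and Izumo1r chose the members, so the levels of these 3 genes are description only and support nothing.

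KLF2 is a transcription factor that keeps T cells quiescent and drives transcription of S1pr1. S1PR1 is the receptor for sphingosine-1-phosphate, the lipid gradient that lymphocytes follow out of tissue into blood and lymph, and surface CD69 binds S1PR1 and removes it from the membrane. Tissue-resident memory T cells are known for low Klf2 and S1pr1 and for surface CD69, while circulating memory cells carry KLF2, S1PR1 and the transcription factor TCF1, the product of Tcf7. Izumo1r encodes folate receptor 4, known from regulatory and follicular helper T cells.

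The study profiled conventional CD4 T cells from the central nervous system of mice with experimental autoimmune encephalomyelitis (EAE), a model of multiple sclerosis, and its title names tissue-resident memory CD4 T cells in chronic autoimmunity. All mice were Foxp3-Cre-YFP, in which YFP marks the regulatory T cells that express Foxp3, and the sort took CD44+ TCRβ+ CD11b- cells without YFP. Tissue was digested with enzymes, and the meninges were removed from the brain. The 4 groups crossed 2 tissues, brain and spinal cord, with 2 times, day 14 and day 50 from immunization, each with 1 RNA library and 1 matched library of antibody tags against CD69, P2X7R and CXCR6. The immunogen, how many mice gave cells to a library, and their age are not given in the sources used here. With 1 library a group, the levels of members at 2 days or in 2 tissues could be compared only as single libraries, with no test. Members and other barcodes could be compared over the 4 libraries, as could the change of that difference with day or tissue. For antibodies, the p-values rest on the differences in these 4 libraries. For genes, the edgeR p-values given below draw largely on a spread between libraries that was pooled over genes. They measure each gene's own spread over the 4 libraries only in small part.

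Below, 4 values in a row give brain first (day 14, then day 50) and spinal cord after it (the same days) unless said otherwise. The members of a library summed to 6978411, 114530, 7359719 and 370138 UMIs, so brain at day 50, with 33 members, gave the least precise values. Median UMIs per barcode were 4246, 3441, 4595.5 and 3312.5 in members and 3956, 2967, 4982.5 and 3484 in the other barcodes. The members of both brain libraries were therefore deeper than the rest and those of both spinal cord libraries shallower. The median mitochondrial share was 2.98%, 2.38%, 2.77% and 2.44% in members and 2.91%, 2.29%, 2.74% and 2.19% in the rest. The 2 day 14 libraries shared 33 kept barcode sequences, 1 of them a member in both, and no other pair of libraries shared a member. Foxp3 and Cd8a had 0 UMIs in the members of every library. Cd8b1, the other of the 2 CD8 genes, had 41, 2, 47 and 1 UMIs in members. The summed CD8 list had 5.88, 17.5, 6.39 and 2.70 CPM in members against 5.24, 2.82, 6.67 and 5.08 in the others. Of the 6 regulatory T cell genes, 4, 3, 4 and 5 were detected in members. Their summed level was 447, 314, 637 and 457 CPM against 620, 531, 876 and 452 in the others. Klf2 and S1pr1 are also endothelial genes, and the endothelial markers Cldn5, Kdr, Flt1, Esam, Vwf and Tek had 0 UMIs in the members of every library. Of the 10 endothelial markers, 4, 1, 4 and 3 were detected in members. The summed level of the list was 60.8, 34.9, 81.0 and 99.96 CPM against 46.4, 37.6, 62.4 and 28.2 in the others. Among those detected were Pecam1 and Ly6c1, which T cells also express, Ly6c1 not in brain at day 50. Egfl7 was detected in members of both day 14 libraries and of spinal cord at day 50, and Cdh5 in members of both day 14 libraries. No cell type that should lack S1pr1 was in the sort, so the background from free RNA was not measured.

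Members made up 13.8% of kept barcodes in the day 14 brain (95% exact binomial interval 13.1% to 14.5%) and 9.48% at day 50 (6.62% to 13.1%). Among spinal cord barcodes they made up 14.9% at day 14 (14.2% to 15.7%) and 6.54% at day 50 (5.39% to 7.86%). These shares depend on depth, because a deeper barcode more easily shows both transcripts. After each barcode was thinned to 2000 UMIs and shallower ones were left out, the shares were 6.90% of 9150, 6.80% of 250, 5.74% of 9128 and 4.29% of 1493 barcodes. At equal depth the brain shares of the 2 days were within each other's intervals. In spinal cord the thinned interval at day 50, 3.32% to 5.44%, overlapped the one at day 14, 5.27% to 6.24%, and their own shares lay outside each other's interval. Intervals cover counting error only.

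**Figure D1:**
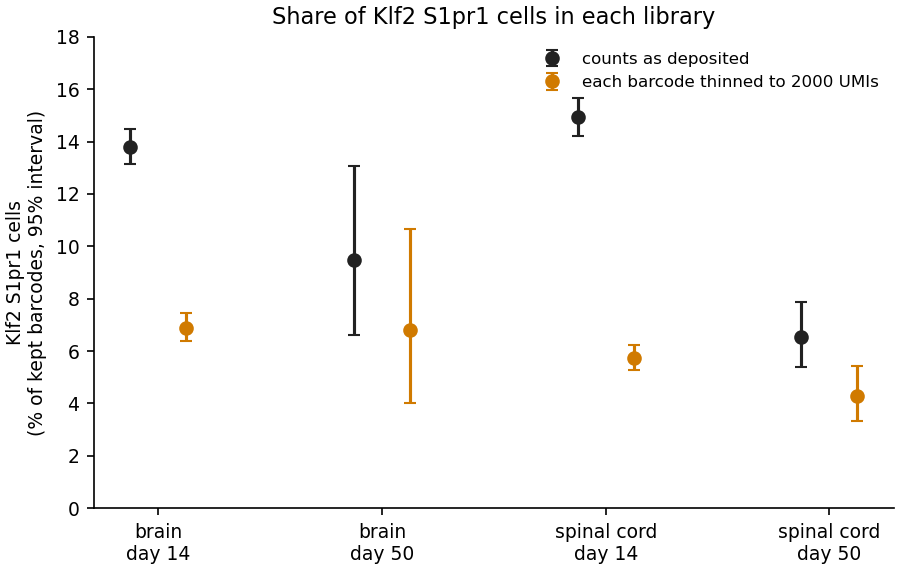
Share of kept barcodes that met the Klf2 S1pr1 rule in each library, in percent, as counted and after thinning to 2000 UMIs; vertical lines are 95% exact binomial intervals. The unthinned share in spinal cord was 14.9% at day 14 and 6.54% at day 50, and the thinned shares of the 4 libraries ran from 4.29% to 6.90%.

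Klf2 and S1pr1 transcripts occurred together in more barcodes than the product of their shares within 10 depth bins gave. In brain at day 14, 1686 barcodes held both, against 1187.47 from the product of the 2 shares summed over 10 depth bins, a ratio of 1.42. The ratio was 1.69 in brain at day 50, and spinal cord gave 1.59 at the earlier day and 2.37 at the later. S1pr1 with Cd69 transcripts gave ratios between 0.93 and 1.02, and S1pr1 with Cxcr6, a chemokine receptor of resident T cells, gave 0.63 to 0.94. The rule fixes the first pair within the members; the ratios are computed over all kept barcodes and carry no test.

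In the 2945 members, other genes of lymphocyte exit, homing and quiescent memory were higher than in the other barcodes, and effector cytokines, chemokines and glycolytic enzymes were lower. Counts were summed over members and over the others in each library and compared with edgeR's quasi-likelihood test, with the library as a block and Benjamini-Hochberg adjustment. Over 10153 genes, 713 were called higher (7.02%) and 763 lower (7.52%) at an adjusted p under 0.05, and the median log2 fold change over all of them was -0.00058. edgeR pooled the spread over genes, with 105.5 prior against 3 residual degrees of freedom. limma-voom, which leaned less on pooling with 5.49 prior degrees of freedom, called 131 higher (1.29%) and 127 lower (1.25%). Its counts stand beside edgeR's below for the lists that compare members with all other kept barcodes. Calls of the same direction in 4 of 4 libraries can be read against 25.2% of all tested genes that moved 1 way in every library. DESeq2 called 142 higher (1.4%) and 169 lower (1.66%). A random split of each barcode's counts, with the rule applied to 1 part and the test to the other, gave 277 higher (3.52%) and 289 lower (3.67%) of 7877 genes. When each member was matched to 1 other barcode of nearest depth, edgeR called 435 higher (4.73%) and 430 lower (4.68%) of 9192 genes. The matched others held fewer counts, for example 6975275 UMIs in brain at day 14 against 40294303 in all the others.

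Of 11 measured genes of exit and homing, which were chosen with results of these data known, 10 rose in members and none fell (median log2 fold change 0.77), with 6 rising and none falling in limma-voom. Klf3, a second Krüppel-like factor of resting lymphocytes, had 50.6, 52.4, 52.0 and 62.1 CPM in members and 23.9, 23.5, 16.8 and 20.3 CPM in the others. The groups did not overlap, and Klf3 rose by 1.36 on the log2 scale (SE 0.094, edgeR adjusted p 2.59e-24, limma-voom 0.00276). S1pr4, another sphingosine-1-phosphate receptor of lymphocytes, had 109, 131, 122 and 122 CPM in members against 71.6, 63.9, 69.8 and 42.2 CPM, a log2 rise of 0.77 (edgeR adjusted p 4.40e-15). Ccr7, the receptor that guides T cells into lymph nodes and afferent lymph, was at 24.2, 122, 13.2 and 27 CPM in members and 16.9, 39.5, 5.74 and 17.7 CPM in the others. It was higher in all 4 libraries (log2 0.79, edgeR adjusted p 5.75e-07), but the call was lost in limma-voom (adjusted p 0.0532) and without spinal cord day 14 (edgeR adjusted p 0.0688). In brain at day 50, 85.7% of the members' Ccr7 UMIs lay in 2 barcodes, so the direction there rests on these. Of 12 measured genes of sphingosine-1-phosphate receptors and enzymes and of the Krüppel-like factors, without Klf2 and S1pr1, 6 rose and none fell (median 0.27; 3 and 0 in limma-voom). They were Klf3, S1pr4, Klf4, Klf6, Klf13 and Sgpp1, a phosphatase that acts on sphingosine-1-phosphate, while the receptor S1pr2, the kinase Sphk2 and the lyase Sgpl1 were not called.

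Rasgrp2, Rasa3, Ripor2, Itgb1 and Itga4 were higher in members of all 4 libraries, and the integrin chain Itgal was not called. Rasgrp2, the Rap1 activator CalDAG-GEFI, had 109, 131, 104 and 113 CPM in members and 56.7, 29.2, 41.8 and 34.9 CPM in the others (log2 1.19, SE 0.079, edgeR adjusted p 1.94e-25). Rasa3, which restrains Rap1, was 2.22-fold higher, and Ripor2, an inhibitor of RhoA, was 1.99-fold higher. Itgb1, the β1 integrin chain, reached 405, 515, 722 and 497 CPM in members against 268, 247, 473 and 292 CPM. Its partner Itga4, the α4 chain of VLA-4, rose 1.52-fold and Itgb1 1.57-fold. Of 17 genes of migration and cytoskeleton, 8 rose and 1 fell in edgeR (6 and 0 in limma-voom), among them the actin crosslinker Flna (log2 0.68) and Emp3 (log2 0.59). S100a4, a calcium-binding protein of motile cells, was not called (log2 0.12). Its log2 ratio was below 0 at day 14 and above 0 at day 50 in both tissues (-0.20, 0.46, -0.0072 and 0.60).

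Memory and quiescence genes moved in the same direction. Of 17 measured, 9 rose and none fell (median 0.37; 7 and 0 in limma-voom). Tcf7, a marker of the label that the rule did not use, had 218, 253, 211 and 278 CPM in members and 119, 95.9, 93.7 and 109 CPM in the others. It was higher in every library, 2.10-fold overall (log2 1.07, SE 0.069, edgeR adjusted p 2.51e-26). Il7r, the interleukin 7 receptor that sustains memory T cells, had 711, 480, 778 and 813 CPM against 416, 334, 458 and 347 CPM, a 1.77-fold rise (SE 0.078 on the log2 scale, edgeR adjusted p 4.33e-16). Lef1, a TCF1 relative, was 1.53-fold higher, and Slamf6, a surface receptor of TCF1-expressing T cells, was 1.77-fold higher. Tcf7 is listed among the markers of the label beside Klf2 and S1pr1, and its level did not go against it.

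**Figure D2:**
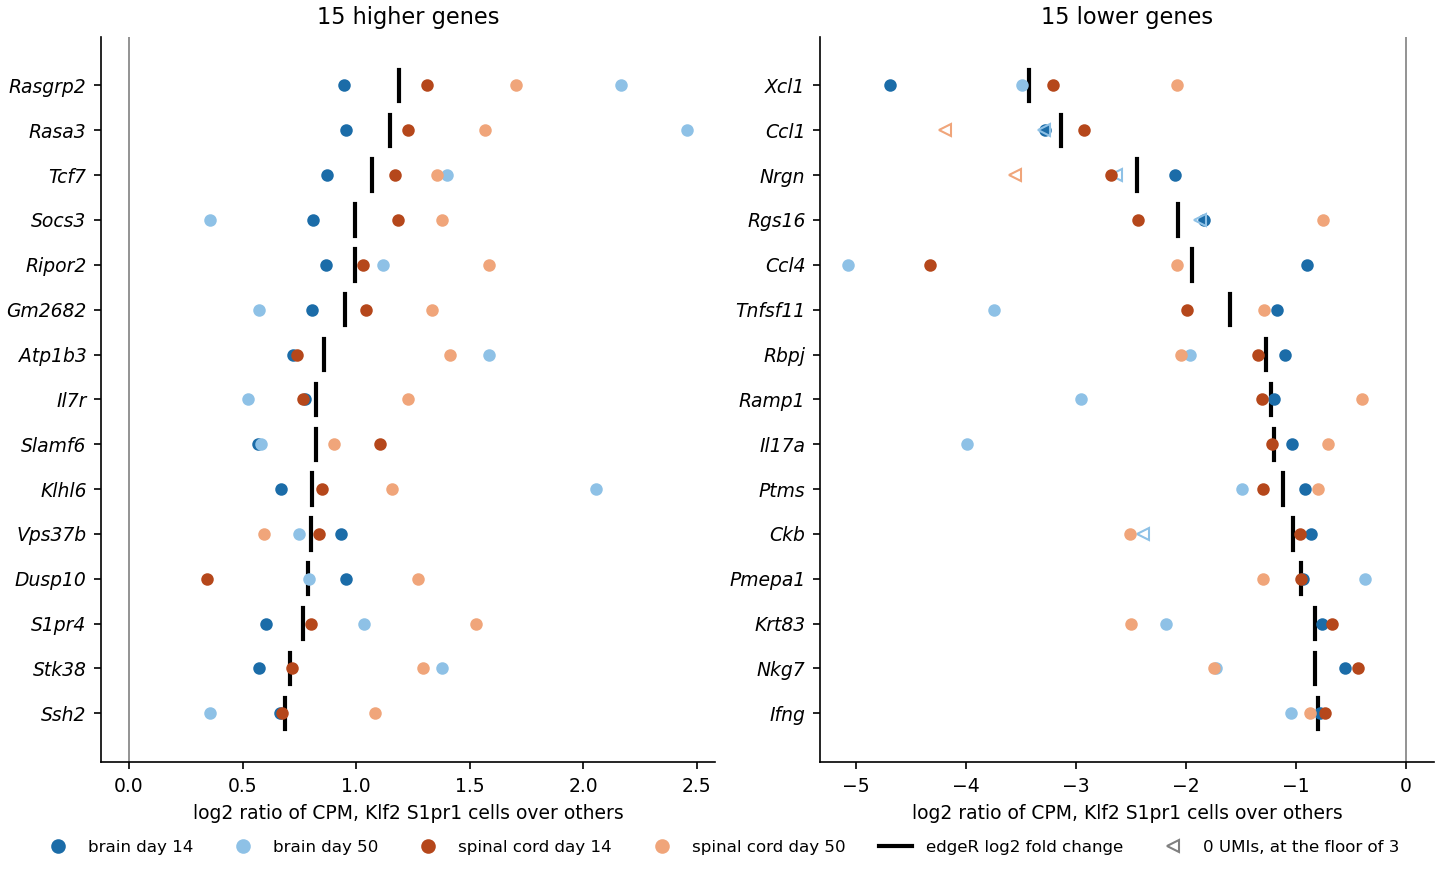
For the 15 higher and the 15 lower genes with the largest fold change by the naming rule, the x axis is the log2 ratio of CPM in members over the other kept barcodes; points are the 4 libraries, black marks the edgeR log2 fold change, and open triangles are libraries with 0 UMIs in members, set at the floor of 3 counts. All 4 Tcf7 points lie right of 0 around an estimate of 1.07, and all 4 Xcl1 points lie left of 0 around -3.43.

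Shares of barcodes with a UMI were also taken at a fixed 2000 UMIs per barcode, a depth that 23 members reached in brain at day 50. Tcf7 was seen in 33.6%, 43.5%, 31.4% and 40.4% of thinned members and in 19.3%, 16.3%, 16.1% and 18.1% of thinned others. Il7r was seen in 65.2%, 47.8%, 66.9% and 69.7% of members and 44.9%, 37.0%, 47.7% and 38.2% of others, and its intervals in brain at day 50 overlapped (26.8% to 69.4% and 30.7% to 43.6%). Il17a was seen in 5.37%, 4.35%, 3.05% and 4.04% of members and 6.92%, 9.69%, 4.84% and 2.30% of others, so the spinal cord at day 50 went the other way from the rest, with 4 members behind its value.

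Members had lower effector cytokine and chemokine transcripts. Of 13 measured genes of that list, 11 fell and none rose (median -1.60; 7 and 0 in limma-voom), and Il10 and Tnfsf8 were not called. Xcl1, the chemokine that attracts cross-presenting dendritic cells, had 2.72, 8.73, 10.9 and 62.1 CPM in members and 70.1, 97.8, 100 and 263 CPM in the others. The fall was 10.8-fold on the edgeR estimate (log2 -3.43, SE 0.13, edgeR adjusted p 1.00e-45), with 1 UMI behind the brain day 50 value. Ccl1, a ligand of the chemokine receptor CCR8, had 45.4 and 99.5 CPM in members of brain and spinal cord at day 14 against 441 and 754 CPM in the others. At day 50 it had 0 UMIs in members of both tissues against 256 CPM in brain and 148 CPM in spinal cord, at least 9.77-fold and 18.2-fold lower with 3 counts per library as the floor.

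Csf2, which encodes GM-CSF, the cytokine of encephalitogenic T cells, had 16 CPM in members and 52.5 CPM in others of brain at day 14. The day 14 spinal cord had 12.4 and 62.3 CPM, and at day 50 Csf2 had 0 UMIs in members of both tissues (others 32.9 and 12.8 CPM; at least 1.26-fold and 1.58-fold lower). The fall was 2.03 on the log2 scale with edgeR (log2 -2.03, SE 0.12, adjusted p 7.74e-30). Ifng, the Th1 cytokine, had 257, 148, 256 and 184 CPM in members and 442, 307, 427 and 336 CPM in the others, a 1.74-fold fall that also held in limma-voom (adjusted p 7.31e-16 with edgeR and 0.00276 with limma-voom). Il17a, the Th17 cytokine, had 95.9, 34.9, 44.2 and 75.6 CPM against 197, 553, 103 and 123 CPM. It fell 2.29-fold (edgeR adjusted p 2.02e-22, limma-voom 0.0312), and DESeq2 did not call it (adjusted p 0.222).

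Of 11 Th17 genes 6 fell and none rose (2 and 0 in limma-voom), and of 11 Th1 genes 4 fell and 3 rose (1 and 0 in limma-voom). Members held Ifng and Il17a transcripts in every library, at lower levels than the rest.

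Genes that follow T cell receptor signalling were lower as well. Of 16 activation genes 10 fell and 1 rose (6 and 0 in limma-voom), the exception being the costimulatory receptor Cd28. The early growth response factors Egr2 (log2 -2.14) and Egr3 (log2 -1.59) fell, as did Tnfrsf9, the activation receptor 4-1BB (log2 -1.95). Among inhibitory receptors, 5 of 10 fell and 1 rose (4 and 1 in limma-voom). Lag3 was at 13.9 and 21.5 CPM in members of brain and spinal cord at day 14, against 44.9 and 77.8 CPM, and had 0 UMIs in members at day 50 (others 39.5 and 27.9 CPM). It fell 3.54-fold (edgeR adjusted p 1.97e-28), and Pdcd1, which encodes PD-1, fell 2.13-fold. Glycolytic enzymes fell in 10 of 16 cases with none higher (median -0.38; 7 and 0 in limma-voom), including triose phosphate isomerase Tpi1 (log2 -0.58), Pgam1 (log2 -0.53) and aldolase Aldoa (log2 -0.44). Of 22 proliferation genes 4 fell and 1 rose in edgeR and none was called by limma-voom, and Mki67 was not called (log2 -0.02). Mcm3, 1 of those that fell, was lower in members at day 14 and higher at day 50 in both tissues (log2 -0.33, 2.84, -0.68 and 0.86). The share of barcodes called cycling was 7.88%, 6.06%, 7.88% and 1.89% in members and 9.29%, 2.54%, 9.40% and 1.78% in the rest.

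**Figure D3:**
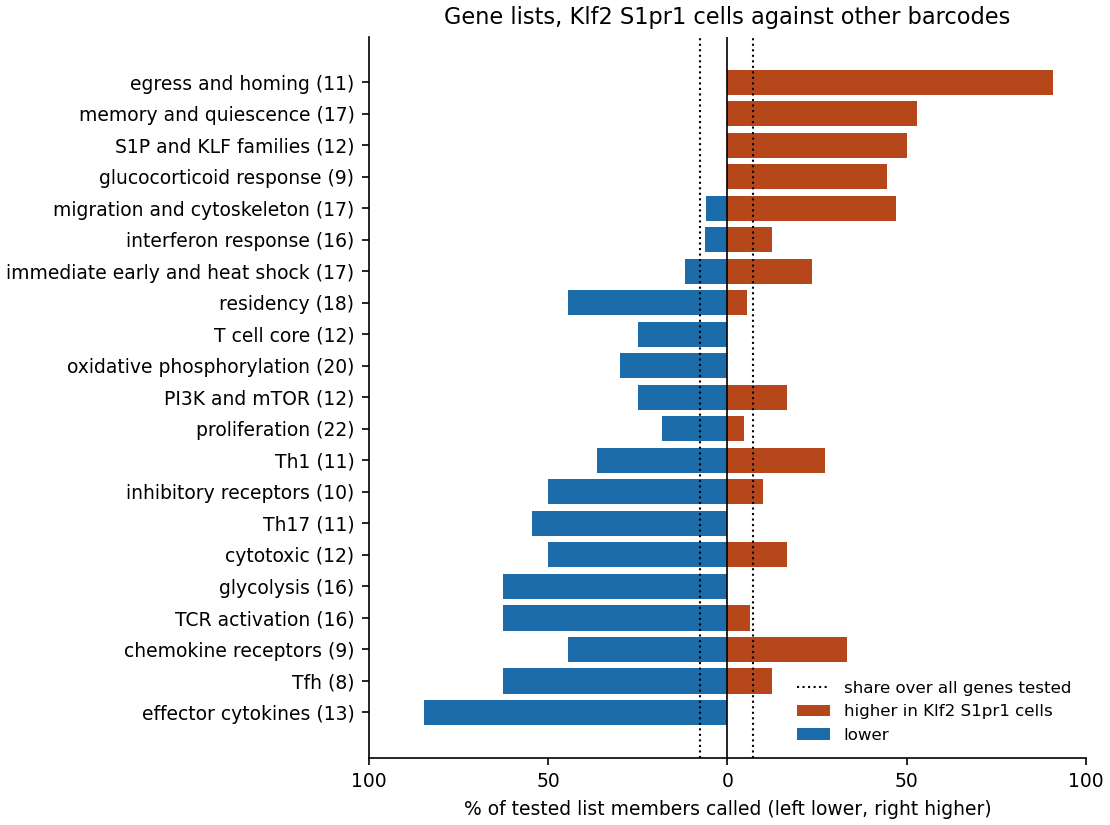
Percent of the tested genes of each list that edgeR called higher (right) or lower (left) in members, with the number tested in brackets, lists sorted by their median log2 fold change and dotted lines at the shares over all genes tested (7.02% higher, 7.52% lower). Exit and homing genes stand at the top with 10 of 11 higher, and effector cytokines at the bottom with 11 of 13 lower.

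Of 18 measured residency genes 8 fell and 1, Runx3, rose (4 and 0 in limma-voom). The fallers included Xcl1, Crtam (log2 -1.62), P2rx7 (log2 -0.73), the ATP-gated channel, and Cxcr6. Cxcr6 had 286, 166, 491 and 119 CPM in members and 357, 344, 595 and 324 CPM in the others. It was lower in every library (log2 -0.49, edgeR adjusted p 4.16e-06), but limma-voom did not call it (adjusted p 0.158). Cd69 transcripts had 654, 524, 449 and 362 CPM in members and 668, 760, 412 and 306 CPM in the others. They were lower in both brain libraries and higher in both spinal cord libraries, and edgeR gave a log2 difference of -0.02 (adjusted p 0.922). Itgae, the αE integrin CD103, was not called (log2 -0.11).

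Surface CD69 was lower in members of every library, whereas its transcript had no common direction. Mean CD69 antibody counts per barcode were 5.03, 0.909, 9.92 and 1.94 in members and 8.78, 4.68, 22.7 and 10.6 in the others. Members were lower in 4 of 4 libraries, by 1.70 on average on the log2 scale (-1.70, SD 0.83, n = 4; exact two-sided sign-flip permutation test p = 0.13, also after adjustment over 3 proteins). That p is the smallest that 4 libraries can give, so no protein could pass 0.05. Among the depth-matched others the means were 9.41, 4.94, 20.3 and 9.77, close to those of all the others.

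P2X7R and CXCR6 features carry names of other proteins beside these identifiers, so their identity rests on the identifiers. P2X7R counts, from the antibody against the ATP-gated channel, were 6.76, 2.27, 10.8 and 6.04 in members and 8.07, 2.75, 17.6 and 10.5 in the rest. CXCR6 counts were 20.4, 1.94, 24.5 and 8.82 in members and 22.8, 7.64, 29.2 and 17.7 in the rest. Both means were lower in 4 of 4 libraries, with mean log2 differences of -0.51 (SD 0.29) for P2X7R and -0.85 (SD 0.84) for CXCR6 (exact permutation p = 0.13 each). Median P2X7R counts in brain were the same in members and the rest, at 5 on day 14 and 1 on day 50. In spinal cord they were 6 against 10 and 4 against 7. Without brain day 50 the CXCR6 difference was -0.48. With at least 2 UMIs of each rule gene the P2X7R difference was -0.27, and brain day 50 turned to 1.54-fold higher in members.

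The CD69 protein difference was present in barcodes with and without Cd69 transcripts. The comparison set here was the depth-matched others. With 0 Cd69 UMIs, members and matched others had means of 3.44 and 7.24 in day 14 brain, 7.73 and 15.3 in day 14 spinal cord, and 1.94 and 8.16 in the day 50 spinal cord. With at least 1 Cd69 UMI they had 5.52 and 9.98, 10.8 and 22.7, and 1.94 and 12.9 in those libraries. In brain at day 50 only 6 members had no Cd69 UMI, with a mean of 0.167 against 8.13 in 8 matched others.

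**Figure D4:**
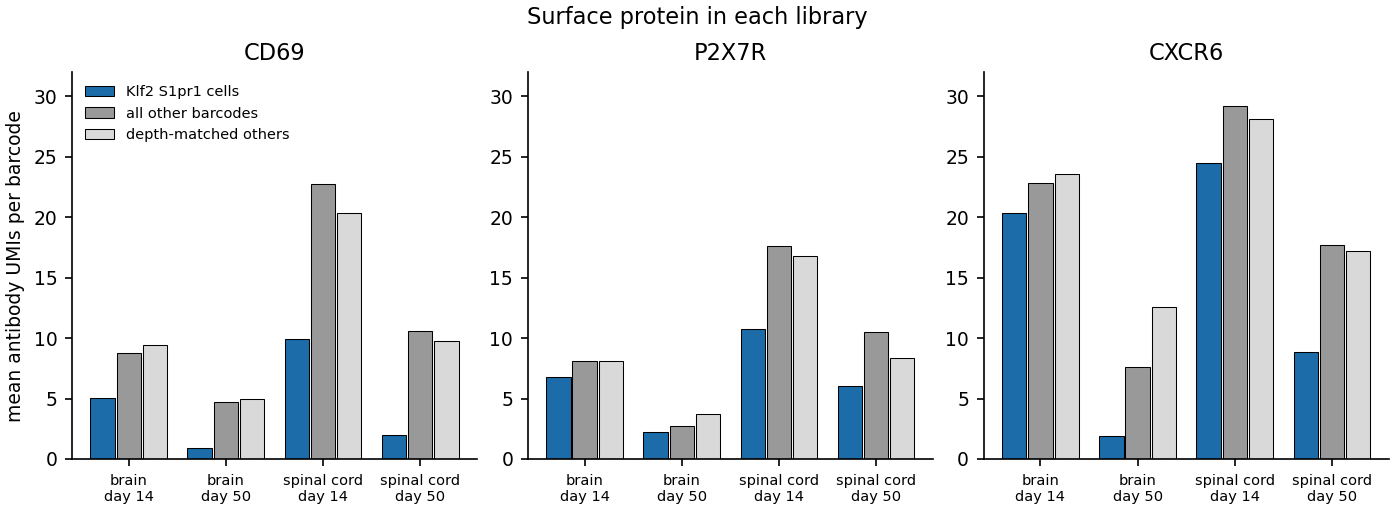
Mean antibody UMIs per barcode (linear axis from 0) for CD69, P2X7R and CXCR6 in members, in all other kept barcodes and in others matched to the members' depth, 1 bar a library and set, with no error bar because each bar is 1 library. Members lie below all the others in each library for each protein, and their CD69 means run from 0.909 to 9.92.

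Among barcodes with no Izumo1r UMI, those with only 1 of the 2 transcripts lay between members and barcodes with neither for Tcf7 and CD69 protein, 2 readouts that the rule did not use. In brain at day 14, Tcf7 had 61.5 CPM in barcodes with neither transcript, 150 CPM with Klf2 only, 116 CPM with S1pr1 only and 218 CPM in members. The corresponding Tcf7 values were 63.8, 82.4, 140 and 253 CPM in brain at day 50. Spinal cord had 58.4, 134, 111 and 211 CPM at day 14 and 88.6, 97.6, 196 and 278 CPM at day 50. Among these 4 classes Tcf7 was lowest without both transcripts and highest with both in each library, and the 2 single classes did not keep 1 order. Barcodes with both transcripts and an Izumo1r UMI, which the rule leaves out, had more Tcf7 than members, at 436, 424, 487 and 299 CPM.

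CD69 antibody means over the same 4 classes were 10.4, 6.76, 7.18 and 5.03 in brain at day 14 and 6.47, 2.65, 1.85 and 0.909 in brain at day 50. Spinal cord had 27.7, 13.1, 17.3 and 9.92 at day 14 and 12, 9.29, 5.53 and 1.94 at day 50. The class with neither was highest and the members lowest of these 4. Barcodes with both transcripts and an Izumo1r UMI were lower still than members, at 4.84, 0.267, 8.85 and 0.926. Just inside the rule, members with exactly 1 UMI of each transcript had CD69 means of 5.10, 3.20, 10.6 and 4.05, from 339, 5, 380 and 22 barcodes. Just outside it, barcodes with 1 Klf2 UMI and no S1pr1 had 7.31, 3.29, 14.9 and 12.7, and those with 1 S1pr1 UMI and no Klf2 had 7.59, 1.92, 18.5 and 6.81. In brain at day 50 the barcodes with 1 S1pr1 UMI and no Klf2 thus lay below the members with 1 UMI of each.

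**Figure D5:**
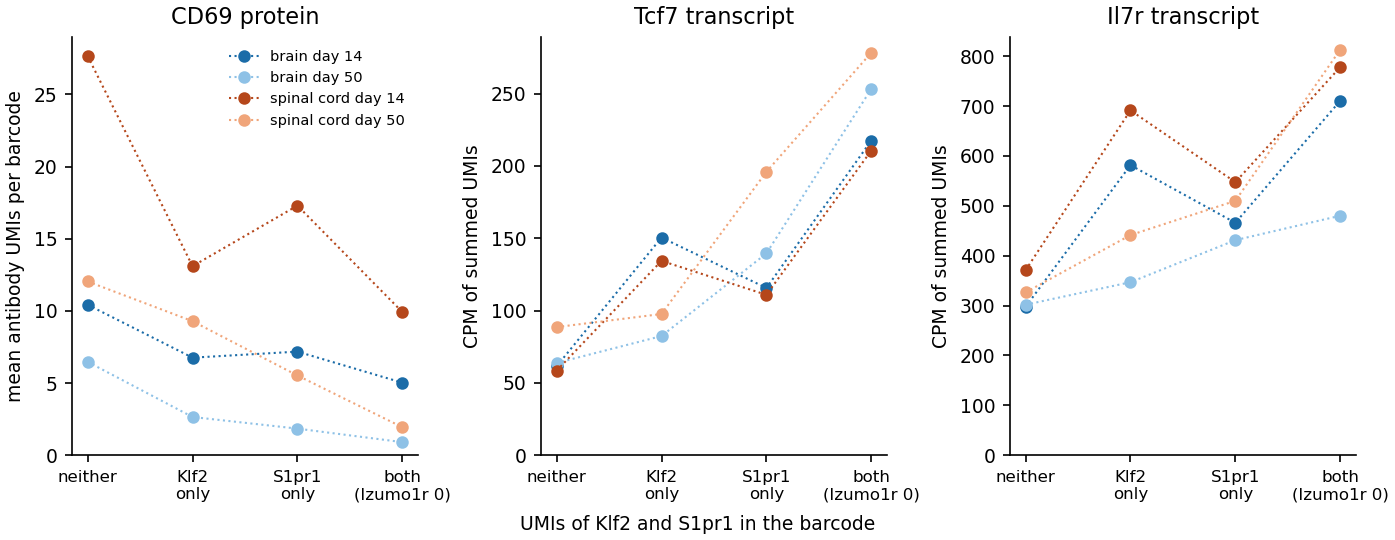
Mean CD69 antibody UMIs per barcode, Tcf7 CPM and Il7r CPM (linear axes from 0) in barcodes with neither Klf2 nor S1pr1, with 1 of them and in members, all without Izumo1r UMIs; points are libraries, and dotted lines only join the points of a library. Tcf7 runs from 58.4 to 88.6 CPM without both and from 211 to 278 CPM in members, Il7r from 297 to 371 and from 480 to 813 CPM, and of these 4 classes CD69 protein is lowest in members of every library.

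Members were also set against the 983 barcodes of the libraries with at least 1 UMI of both Tcf7 and Izumo1r. The rule had used Izumo1r, and these barcodes were chosen on Tcf7 and Izumo1r. Of 6585 genes, 329 were higher in members (5%) and 219 lower (3.33%) with edgeR's quasi-likelihood test and Benjamini-Hochberg adjustment. limma-voom was not run for this comparison, so the list counts here are edgeR's alone. Members had more of the migration list, with 15 of 17 genes higher and 1 lower, and of the Th1 list, with 6 of 8 higher. Ccr2, the receptor of inflammatory recruitment (log2 1.81), Anxa1 (log2 2.02), Ifng (log2 1.09) and Il17a (log2 1.25) were among the higher genes. Follicular helper genes were higher in none and lower in 5 of 6, and inhibitory receptors lower in 5 of 7, with Tox2 (log2 -2.42), Cd200 (log2 -2.18) and Pdcd1 (log2 -0.99) lower. Ccr7 (log2 -1.22) was lower in members than in the Tcf7 Izumo1r barcodes, while it was higher than in the other barcodes as a whole. CXCR6 antibody counts were 20.4, 1.94, 24.5 and 8.82 in members and 9.63, 1.30, 13.5 and 4.61 in the Tcf7 Izumo1r barcodes, higher in 4 of 4 libraries. Mean CD69 counts were lower in members in 4 of 4 libraries, by a mean log2 difference of -0.69 (7.70, 0.95, 14.2 and 5.69 in the Tcf7 Izumo1r barcodes), and mean P2X7R counts in 3 of 4 (-0.34). Median CD69 counts did not differ, at 3, 0, 6 and 1 in members and in the Tcf7 Izumo1r barcodes alike. Cd69 transcripts were higher in members than in these barcodes in every library (log2 0.57, edgeR adjusted p 3.85e-06).

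In spinal cord members, Vps37b, Gna13 and Rgs2 were higher at day 50 than at day 14, and Cxcr6, Ccr2 and 9 of 17 migration genes were lower. A gene was called here at 1.5-fold or more with an exact conditional 95% interval of the ratio that excluded 1, after the median log2 ratio was subtracted where it lay more than 0.1 from 0; each such ratio compares 2 libraries, not 2 conditions. In spinal cord, 686 of 10537 genes were higher at day 50 (6.51%) and 498 lower (4.73%) relative to a median of -0.25, against 353 and 1052 without subtracting it. Vps37b, a subunit of the ESCRT-I sorting complex, had 421 CPM at day 50 and 66.0 CPM at day 14, Gna13, the G protein subunit downstream of migration-arresting receptors, had 802 and 165 CPM, and Rgs2, a regulator of G protein signalling, had 392 and 77.4 CPM. The other barcodes had 279 and 37.0 CPM of Vps37b, 491 and 151 CPM of Gna13, and 365 and 70.0 CPM of Rgs2, so all 3 genes were higher at day 50 in both. Cxcr6 was lower at day 50 in members, at 119 against 491 CPM, as were Ccr2 at 111 against 286 CPM and the interferon-induced Ifitm3 at 18.9 against 299 CPM. The other barcodes were lower at day 50 too, with 324 against 595 CPM of Cxcr6, 110 against 205 CPM of Ccr2 and 96.9 against 367 CPM of Ifitm3. Of 17 migration genes 9 were lower in members at day 50 and none was higher. Of 16 measured genes of the immediate early and heat shock list, 8 were higher and 1, Jun, was lower, and of 9 glucocorticoid response genes 4 were higher and 1 lower.

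In brain, 230 of 10256 genes were higher in members at day 50 (2.24%) and 240 lower (2.34%) relative to a median of 0.12, against 291 and 161 without subtracting it. Cd40lg, the costimulatory CD40 ligand, had 410 CPM at day 50 and 99.7 CPM at day 14, and the other barcodes had 263 and 105 CPM. Plac8 had 8.73 and 322 CPM and Lgals3, which encodes galectin 3, had 43.7 and 251 CPM, with the other barcodes at 86.5 and 452 CPM and at 95 and 265 CPM. Ccr7, called higher at day 50, took 85.7% of its UMIs there from 2 barcodes.

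Between tissues at day 14, 609 of 11268 genes were higher in spinal cord members (5.4%) and 537 lower (4.77%) relative to a median of 0.20, against 1388 and 293 without subtracting it. Of 17 immediate early and heat shock genes 11 were lower in spinal cord, as were 11 of 16 interferon response genes. Nr4a1, induced by T cell receptor signalling, had 36.3 CPM in spinal cord and 115 CPM in brain, and the interferon-induced Ifi27l2a had 582 and 1629 CPM. The other barcodes had 53.0 and 104 CPM of Nr4a1 and 637 and 1887 CPM of Ifi27l2a, the same direction. Itgb1 was higher in spinal cord members, at 722 against 405 CPM. Klf2, which the rule required, was itself lower in spinal cord members, at 462 against 770 CPM, and S1pr1 was at 308 and 306 CPM.

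At day 50, where the median log2 ratio was 0.0081 and was not subtracted, 82 of 4487 genes were higher in spinal cord members than in brain members (1.83%) and 146 lower (3.25%). Il7r was higher in spinal cord, at 813 against 480 CPM, and Klf2 lower, at 697 against 1502 CPM. Of 13 interferon response genes 10 were lower in spinal cord, among them Irf7 at 32.4 against 166 CPM, with 47.4% of the brain UMIs in 2 barcodes.

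The difference between members and other barcodes was itself compared between days and between tissues with an interaction term in edgeR's quasi-likelihood test. It differed by day for 62 genes (0.611%) and by tissue for 3 genes (0.0295%), which are Ccl3, Ccl4 and Xcl1. Cxcr6 was among the genes that differed by day, with a log2 interaction of -1.12 (adjusted p 1.34e-05), lower in members by more at day 50.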

How the data were processed

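Cells from 4 tissue and day groups were measured by 10x 3′ RNA sequencing with TotalSeq-A antibody tags. The authors deposited filtered matrices of UMI counts for 32285 genes and 3 antibodies, made with Cell Ranger 6.1.1 on mm10, per the submitters' processing notes. Antibodies were taken by feature identifier: the identifiers of 2 features read P2X7R and CXCR6, which match the labels, but their name column gives other proteins (CD3 and CD16), so these 2 readouts rest on the identifiers.

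Here, 21551 of 22247 deposited barcodes were kept, and no doublet caller was run. Raw counts were summed per library over members and over other kept barcodes and tested with edgeR 4.0.16 (R 4.3.3; TMM, filterByExpr, library as block, since both sums come from 1 library) over 10153 genes, with the 3 rule genes untested. In simulated data for this comparison over 10038 genes, 98 of 99 genes changed by log2 1 and 99 of 99 changed by log2 2 were called, with 6 false calls. Every simulated gene had the same spread, the fitted common dispersion of 0.0027. The count of false calls therefore cannot speak for genes whose spread between libraries differs from the pooled one. Antibody means were compared with exact sign-flip permutation (scipy 1.17.1). Ratios between libraries needed at least 10 UMIs over both sums.

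The members and the 31 gene lists were chosen with earlier results of these data known. Genes were named by a written rule: the 15 highest and 15 lowest called genes at 50 CPM or more that moved 1 way in all 4 libraries, up to 4 per list by smallest p, and the focal genes; between libraries, the 8 farthest each way. List members and genes outside the rule that are named to exemplify a count were chosen after their values were seen. Some genes that the rule names are not reported here. Alternatives were another normalization, DESeq2 1.42.0, limma-voom 3.58.1, no filter, no block, leaving out each library, thinning, depth matching, a random split of counts between the rule and the test, and a stricter rule.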

Additional observations from a re-analysis of the deposited data

Results flagged for a closer look

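The difference between members and other barcodes itself differed between days for 62 genes (0.611%) and between tissues for 3 genes (0.0295%: Ccl3, Ccl4 and Xcl1), by an interaction term in edgeR's quasi-likelihood test over 4 libraries, added after the data were seen. Each value below is a difference of log2 fold changes, with edgeR's adjusted p.

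The log2 ratio of members over others was lower at day 50 than at day 14 for the following genes. Nkg7, a cytotoxic granule protein, had an interaction of -1.31 (6.06e-11), the chemokine Ccl5 -1.39 (7.50e-18), the cathepsin Ctsw -0.91 (0.000192) and Cxcr6 -1.12 (1.34e-05). Ccl5 was higher in members than in others in spinal cord at day 14 and lower in the other 3 libraries: it had 1177 and 1038 CPM in brain and spinal cord members at day 14 and 1022 and 1297 CPM at day 50, while the other barcodes went from 1513 and 877 CPM to 2477 and 3416 CPM. Ckb, a creatine kinase, had -1.98 (2.63e-05) and the keratin Krt83 -1.78 (3.54e-05). Ccl1 (-11.3, 0.00288) and Nrgn (-11.3, 0.00217) had 0 UMIs in members of both day 50 libraries, so these fitted values depend on the prior count and are no bound.

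In the other direction by day, the cytokine Il22 had 5.40 (4.79e-72) and Il2 had 1.86 (0.00102), but both ratios rose in spinal cord only. From day 14 to day 50 the log2 ratio of Il2 went from -2.44 to 0.77 in spinal cord and from -1.50 to -2.21 in brain. That of Il22 went from -1.01 to 4.85 in spinal cord, with all its UMIs in members at day 50 in 2 barcodes. In brain it was -0.69 at day 14, and members had 0 UMIs of Il22 at day 50. The interaction by day was 1.42 (0.0261) for Xcl1, 0.65 (0.0143) for the sodium pump subunit Atp1b3, 0.54 (0.0423) for S100a4 and 2.02 (0.00435) for the replication factor Mcm3. By tissue, spinal cord minus brain, Xcl1 had 1.77 (0.0134) and Ccl4 -2.71 (1.30e-15). For Ccl4, 76.9% of the 39 UMIs in spinal cord members at day 14 and 68.4% of the 431 UMIs in brain members lay in 2 barcodes each. The causes were not tested.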

How the results depend on the processing

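The count of called genes, 713 higher and 763 lower, was the result most affected by the tool. It was 142 and 169 with DESeq2, 131 and 127 with limma-voom, 435 and 430 after depth matching, 285 and 320 after thinning, 277 and 289 after the count split, 261 and 279 with at least 2 UMIs of each rule gene, and 86 to 788 and 143 to 807 when each library was left out in turn (109 and 163 without brain day 14, 86 and 143 without spinal cord day 14). Without the replicate block, that is without pairing the 2 sums of a library, it was 6 and 4. Of the called genes, 1397 were also tested after depth matching, all with the same sign, and 816 of them were called; limma-voom called 258 of them with the same sign. Signs reversed for Gzmb (-0.31 thinned; -0.078 without the spinal cord of day 14, the lowest of a leave-one-out range up to 0.82), Hspa1a (0.34 in DESeq2, 0.047 in limma-voom), Mcm3 (0.084 without the replicate block, 0.038 without the spinal cord of day 14 at the top of a leave-one-out range from -0.48, 0.42 in DESeq2) and Ikzf2 (0.36 without the Izumo1r condition). The call of Ccr2 (log2 0.35) was lost in DESeq2, in limma-voom, after thinning and without either day 14 library. The mean CD69, P2X7R and CXCR6 differences stayed below 0 in the alternatives run, with CXCR6 at -0.48 without brain day 50 and P2X7R at -0.27 with at least 2 UMIs of each rule gene.

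Shares were 6.90%, 5.74% and 4.29% after thinning in the day 14 brain and the day 14 and day 50 spinal cord, and 16.3%, 13.8%, 16.2% and 8.21% without the Izumo1r condition. Between days, brain gave 94 higher and 145 lower after thinning and 85 lower without the 2 richest barcodes per gene, with Nrgn at 0.20 and Gzma at 0.69 thinned and Gzma at 1.40 without the 2 richest. Spinal cord gave 353 higher and 1052 lower without subtracting the median and 454 and 325 after thinning, with Il22 at -0.19 without the 2 richest. Between tissues, day 14 gave 1388 and 293 without subtracting the median. Day 50 gave 20 and 73 after thinning and 74 lower without the 2 richest, with Ly6c1 at -0.37 thinned and Klf4 at -0.28 without the 2 richest. The causes were not tested. Depth limits the 33 members of brain day 50 most.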

Other observations

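Of 16 interferon response genes, 2 rose and 1 fell in edgeR and none was called by limma-voom; Oasl2 was 1.40-fold higher. Of 9 glucocorticoid response genes 4 rose and none fell (1 and 0 in limma-voom), with Tsc22d3, which encodes GILZ, at 241, 210, 95.7 and 162 CPM in members and 173, 171, 60.5 and 68.9 CPM in the others (brain at day 14 and day 50, then spinal cord). Socs3, an inhibitor of cytokine receptor signalling, had 143, 140, 78.7 and 238 CPM in members against 81.7, 109, 34.6 and 91.5 CPM, a 1.99-fold difference with edgeR. Among 20 genes of oxidative phosphorylation 6 fell and none rose, and limma-voom called 1 of them.

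Nrgn, which encodes neurogranin, a calmodulin-binding protein best known from neurons, was among the most strongly lower genes of the members. It had 85.5 and 96.7 CPM in members of brain and spinal cord at day 14 against 367 and 618 CPM in the others. At day 50 it had 0 UMIs in members of both tissues against 163 and 94.8 CPM, at least 6.21-fold and 11.7-fold lower with a floor of 3 counts per library. Rgs16, a regulator of G protein signalling, was 4.21-fold lower and Rbpj, the effector of Notch signalling, was 2.41-fold lower with edgeR.

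Of 9 chemokine receptor genes 3 rose (Ccr2, Ccr4 and Cxcr3) and 4 fell, of which limma-voom called 1 lower. Cytotoxic genes rose in 2 and fell in 6 of 12 cases (0 and 1 in limma-voom), follicular helper genes in 1 and 5 of 8 (1 and 4), immediate early and heat shock genes in 4 and 2 of 17 (0 and 1) and genes of the PI3K and mTOR pathway in 2 and 3 of 12 (1 and 0). Of 12 T cell genes 3 fell (Cd3d, Cd3g and Thy1), and limma-voom called none. Among lists for other cells, 3 of 4 regulatory T cell genes fell (2 in limma-voom), 1 of 3 γδ T cell genes, 1 of 2 natural killer genes, 1 of 3 myeloid genes and 1 of 2 dendritic genes fell (none in limma-voom). Both endothelial genes rose (1 in limma-voom), and the single CD8 gene and the 2 glial genes were not called. No B cell or erythroid gene had enough counts to be tested.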
